A study of Lemna gibba and Lemna japonica and Spirodela polyrhiza with 12 samples.

Results

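Small RNA loci dominated by reads of 23 nt made up 2738 of the 79572 loci listed for 4 duckweeds, tiny flowering plants that float on still water. They were chosen by the size call of each locus: every locus called 23 nt, outside microRNA hairpins, on a numbered chromosome. The Lemna gibba accession Lg7742a had 528 of them, and 1616 came from Lj8627, which is Lemna japonica. Spirodela polyrhiza, accession Sp9509, had 151, and Wolffia australiana, accession Wa8730, had 443. The size call is therefore a description of these loci and no finding about them. Their reads, strand, length and position were not part of the choice.

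Each accession was a sterile stock culture of a single genotype with no treatment, and RNA came from whole fronds, the leaf-like plant bodies. Growth conditions were shared by all 4 accessions. There were 3 biological replicates each, 12 small RNA libraries in all, but each list was made from its 3 libraries as a pool. The spread of replicates is therefore unknown, and accessions could not be tested against each other. Each species is represented by 1 accession, so species and accession cannot be told apart. In whole fronds, fewer cells with a small RNA and less of it per cell cannot be told apart either. The assembly of Lj8627, a hybrid, carries 2 chromosome sets, named M and T. Each list holds between 5005362 reads in Lg7742a and 7197515 reads in Sp9509. The smallest locus listed had 3 reads in Lg7742a and Lj8627, 4 in Wa8730 and 5 in Sp9509. Intervals given with a share or a ratio are 95% intervals that cover counting error only, and reads need not be independent molecules.

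In plants, Dicer-like enzymes cut double-stranded RNA into small RNAs of characteristic sizes. In Arabidopsis, DCL1 and DCL4 mostly make 21 nt RNAs, DCL2 makes 22 nt RNAs, and DCL3 makes the 24 nt small interfering RNAs that guide DNA methylation of repeats. No Arabidopsis Dicer-like enzyme is known for 23 nt as its main product, but DCL3 also releases 23 nt strands, paired with 24 nt strands. Small RNAs cut from a long double-stranded precursor map to both strands of a locus, whereas a single stable RNA or its fragment maps to a single strand. The lists give each locus as plus, minus or neither strand, the last where reads come from both. Reads per strand were not available here, so a plus or minus locus may also hold reads of the other strand.

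The 23 nt loci were 6.51% of the chromosomal loci outside hairpins in Lj8627 (6.21 to 6.83) and 5.41% in Lg7742a (4.98 to 5.88). The share was 2.47% in Sp9509 (2.11 to 2.89) and 1.20% in Wa8730 (1.10 to 1.32). Per Mb, with each chromosome measured to its last listed locus, there were 1.09 such loci in Lg7742a, 1.09 in Sp9509, 1.26 in Wa8730 and 2.15 in Lj8627. The density of 24 nt loci over the same length ran from 4.63 per Mb in Lg7742a to 85.1 in Wa8730. The range of 23 nt densities was thus far narrower than that of 24 nt densities. Both densities count loci down to the smallest listed, which differed between accessions. In reads, the 23 nt loci took 0.158% of all reads in loci in Lg7742a, 0.181% in Wa8730, 0.408% in Sp9509 and 0.480% in Lj8627.

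A typical 23 nt locus rested on few reads. The median was 4 reads in Lg7742a, where the quartiles were 3 and 6, and 5 reads in Lj8627, with quartiles of 4 and 7. Wa8730 had a median of 8 reads and quartiles of 6 and 11. In Sp9509 the median was 14 reads and the quartiles 9 and 35.5. Loci under 10 reads were 91.7% of the class in Lj8627 and 89.8% in Lg7742a, but 62.1% in Wa8730 and 27.2% in Sp9509. A few deep loci held most reads: the top 10 had 88.2% of the 23 nt reads of Sp9509, and from 53.9% in Wa8730 through 57.4% in Lj8627 to 61.1% in Lg7742a.

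Strand divided the accessions. Loci on neither strand were 264 of 528 in Lg7742a, a share of 50.0% (45.7 to 54.3), 992 of 1616 in Lj8627 or 61.4% (59.0 to 63.7), and 282 of 443 in Wa8730 or 63.7% (59.1 to 68.0). In Sp9509 they were 7 of 151, or 4.64% (2.26 to 9.26). The 24 nt loci of Sp9509 were on neither strand in 87.3% of cases, so its 23 nt loci did not share the strand pattern of its 24 nt loci. The corresponding shares of 24 nt loci were 65.6% in Lg7742a, 72.2% in Lj8627 and 92.9% in Wa8730. Single-strand 23 nt loci lay on either strand: 150 plus and 114 minus in Lg7742a, 382 and 242 in Lj8627, 73 and 71 in Sp9509, and 88 and 73 in Wa8730.

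The deepest loci were almost all on a single strand. Across the 4 accessions, 124 loci of the 23 nt class had at least 30 reads, and 123 of them lay on a single strand. The exception was a locus of 30 reads on chr12 of Lg7742a. The deepest locus on neither strand had 30 reads in Lg7742a, against 1586 in the deepest single-strand locus. These values were 26 and 2035 in Lj8627, 26 and 9421 in Sp9509, and 21 and 2682 in Wa8730. Loci of the 24 nt class at the same depth were on neither strand in 99.6% of 5466 cases in Wa8730, 92.3% of 416 in Sp9509 and 69.0% of 71 in Lj8627. The last value joins 47 of 58 loci on M, or 81.0%, and 2 of 13 on T, or 15.4%. In Lg7742a this held for 15.2% of 33 such loci. On T and in Lg7742a, then, the deep 24 nt loci were mostly on a single strand too. Deep loci with no size call were on neither strand in 4.81% of 707 cases in Lg7742a and 3.88% of 799 in Lj8627. In Sp9509 it was 11.7% of 976 and in Wa8730 9.99% of 851. A single strand at depth was thus not particular to the 23 nt class. Deep 21 nt loci had 42.9%, 44.4%, 69.0% and 52.2% on neither strand in that order, and 22 nt loci 83.1%, 67.7%, 57.5% and 59.3%.

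**Figure D1:**
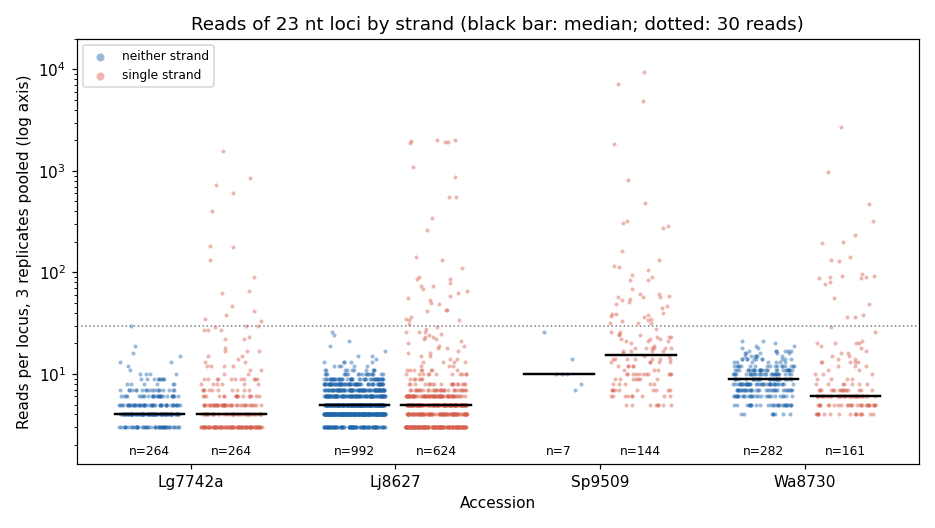
Reads per 23 nt locus, 3 replicates pooled, on a log axis, for each accession (horizontal axis); points are loci, blue for neither strand and red for a single strand, black bars are medians and the dotted line marks 30 reads. Above 30 reads all points are red, and 1 blue point of Lg7742a lies on the line.

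In reads the single-strand loci dominated every accession. They held 6529 of 7891 reads in Lg7742a, 20366 of 25910 in Lj8627, 29261 of 29346 in Sp9509 and 7589 of 10198 in Wa8730. Loci on neither strand held 17.3%, 21.4%, 0.290% and 25.6% of the 23 nt reads in that order. By number these loci were 50.0% or more of the class in Lg7742a, Lj8627 and Wa8730, so counting loci and counting reads give different pictures of the same class.

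The number of 23 nt loci for every 100 loci of 24 nt fell with depth among loci on neither strand. At 3 or 4 reads there were 24.1 in Lg7742a, 20.8 in Lj8627 (18.6 to 23.2) and 8.51 in Wa8730 (4.20 to 17.3). At 5 to 9 reads the values were 15.7 in Lj8627 and 15.3 in Lg7742a, with 13.3 in Sp9509 from 2 loci, and 3.61 in Wa8730. At 10 to 29 reads they were 7.01 in Lg7742a (3.84 to 12.8), 6.25 in Lj8627 (4.66 to 8.38), 0.982 in Sp9509 (0.418 to 2.31) and 0.644 in Wa8730 (0.537 to 0.774). With at least 30 reads no 23 nt locus on neither strand was listed in Wa8730 beside 5444 loci of 24 nt, none in Sp9509 beside 384 and none in Lj8627 beside 49. The upper bounds of these ratios were 0.0706, 1.00 and 7.84 for every 100. Lg7742a had 1 beside 5.

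Among single-strand loci the same ratio did not fall in this way. With at least 30 reads, 37 loci of 23 nt stood beside 22 of 24 nt in Lj8627, 44 beside 32 in Sp9509, 24 beside 22 in Wa8730 and 18 beside 28 in Lg7742a. Per 100 this was 168 (99.8 to 283), 138 (87.5 to 216), 109 (61.6 to 193) and 64.3 (35.9 to 115). All 4 intervals held 100, that is, equal numbers. At 10 to 29 reads the ratio was 109 in Sp9509, 82.8 in Lg7742a and 64.9 in Lj8627. In Wa8730 it went from 37.8 at 3 or 4 reads to 8.78 at 5 to 9 and 2.86 at 10 to 29 reads, and was highest among the deepest loci.

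**Figure D2:**
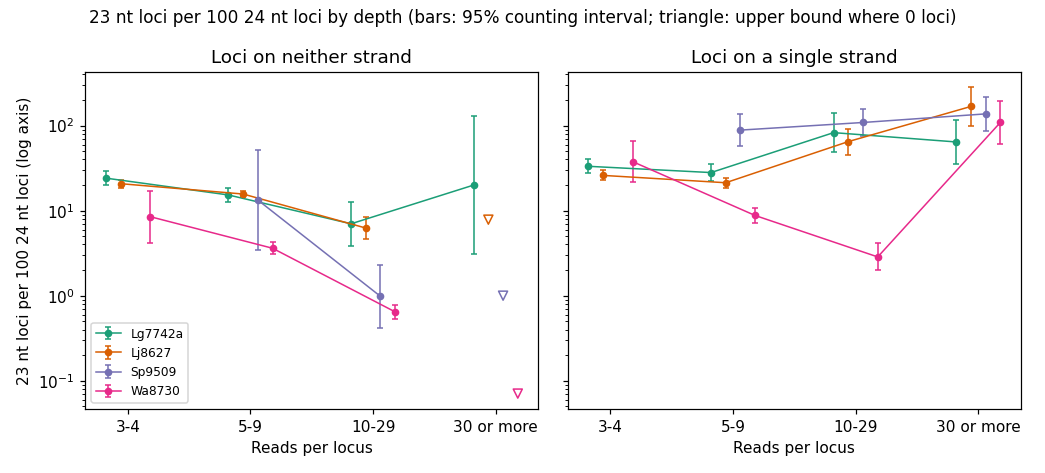
Number of 23 nt loci for every 100 loci of 24 nt (vertical log axis) by reads per locus (horizontal axis), for loci on neither strand (left) and on a single strand (right); points are the 4 accessions, bars are 95% counting intervals, and triangles give the upper bound where no 23 nt locus was listed. On the left all 4 accessions decline up to 10 to 29 reads, from 24.1 to 7.01 in Lg7742a; on the right the deepest loci reach 168 in Lj8627.

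Listed lengths carried a mark of the dominant read. Single-strand loci of the 21, 22, 23 and 24 nt classes were most often 421, 422, 423 and 424 bp long, in each of the 4 accessions. The most common listed length of such a locus was thus 400 bp plus the size of its class. The rule for locus ends is not stated in the labels or lists. A length of exactly 423 bp was found for 50.0% of the 144 single-strand 23 nt loci of Sp9509 (41.9 to 58.1), 39.8% of the 264 in Lg7742a (34.1 to 45.8), 29.2% of the 161 in Wa8730 (22.7 to 36.6) and 24.8% of the 624 in Lj8627 (21.6 to 28.4). Among loci on neither strand the shares were 13.3%, 4.96% and 9.88% in Lg7742a, Wa8730 and Lj8627, and 2 of 7 in Sp9509.

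Loci on neither strand were spread over shorter lengths, although 423 bp was also their most common length in Lg7742a and Lj8627. Lengths under 421 bp were listed for 74.2% of them in Lg7742a, 75.3% in Lj8627 and 84.4% in Wa8730. The 24 nt loci on neither strand had 74.3% and 72.8% under 421 bp in Lg7742a and Lj8627, but 49.5% in Wa8730. In Sp9509, 130 of the 144 single-strand 23 nt loci, or 90.3%, measured 423 to 428 bp. Long loci were few: over 600 bp there were 29 in Lj8627, 7 in Lg7742a, 4 in Wa8730 and 1 in Sp9509. Among single-strand loci with at least 30 reads, a length of 423 to 428 bp was listed for 14 of 18 in Lg7742a, 24 of 37 in Lj8627, 40 of 44 in Sp9509 and 16 of 24 in Wa8730.

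**Figure D3:**
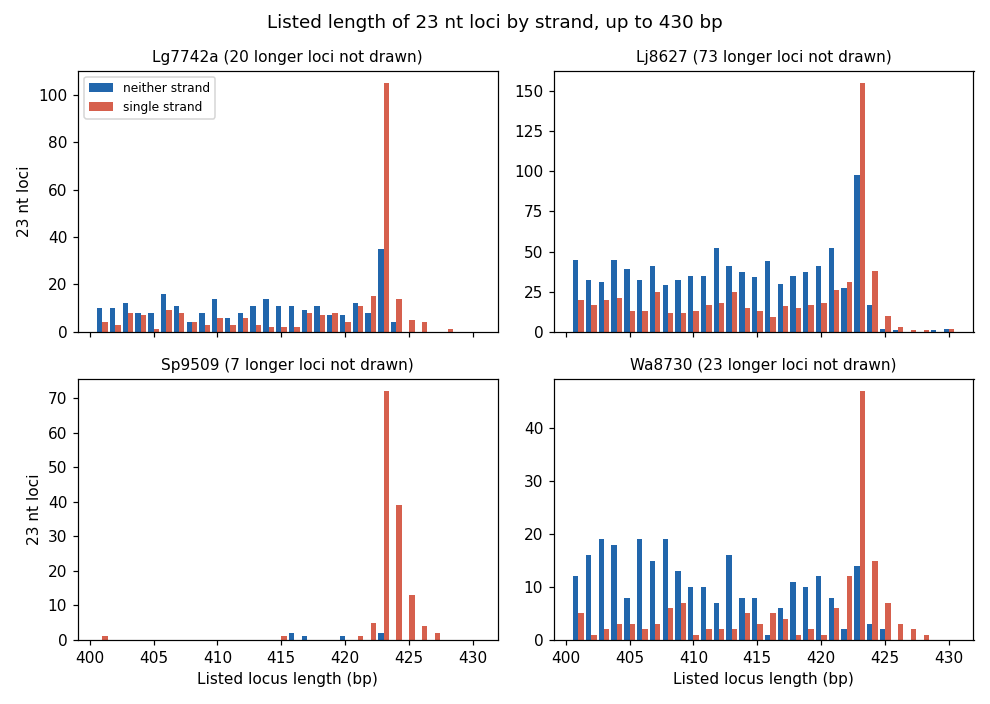
Number of 23 nt loci (vertical axis) by listed length in bp (horizontal axis, 401 to 430 bp) for each accession, blue bars for loci on neither strand and red bars for single-strand loci. Red bars peak at 423 bp in all 4 panels, with 105, 155, 72 and 47 loci in Lg7742a, Lj8627, Sp9509 and Wa8730, while blue bars run from 401 bp upward, with a peak of their own at 423 bp of 35 loci in Lg7742a and 98 in Lj8627.

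Distance to the nearest 24 nt locus was measured between edges. The median was 3.15 kb in Wa8730 (2.52 to 3.95), 18.1 kb in Lj8627 (16.0 to 20.4), 58.1 kb in Lg7742a (47.3 to 65.6) and 66.9 kb in Sp9509 (53.5 to 82.8). These medians depend on how dense 24 nt loci are in an assembly, so other classes of the same accession serve as the comparison. In Lg7742a the 22 nt loci lay a median of 83.0 kb from a 24 nt locus, the 21 nt loci 78.6 kb, and 24 nt loci 51.7 kb from the next of their own class. The 23 nt loci of Lg7742a were thus closer than 21 and 22 nt loci, and their interval held the 24 nt value. In Lj8627 the 22 nt, 21 nt and 24 nt medians were 55.3, 33.6 and 14.9 kb, and that of the 23 nt class was nearest to the last.

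Wa8730 and Sp9509 differed from this. In Wa8730 the 24 nt loci lay a median of 0.511 kb from each other, and the 22 and 21 nt loci 5.54 and 11.2 kb from a 24 nt locus. Its 23 nt loci stood between, at 3.15 kb. In Sp9509 the 24 nt loci were closely grouped, with a median of 0.696 kb, but the 23 nt loci at 66.9 kb were no closer to them than 22 nt loci at 58.8 kb or 21 nt loci at 59.9 kb. The interval of the 23 nt median, 53.5 to 82.8 kb, held both of those values.

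Close neighbours gave the same order. A 24 nt locus lay within 1 kb of 115 of 443 loci of 23 nt in Wa8730, or 26.0% (22.1 to 30.2), 146 of 1616 in Lj8627, or 9.03% (7.73 to 10.5), 32 of 528 in Lg7742a, or 6.06% (4.33 to 8.43), and 1 of 151 in Sp9509, or 0.662% (0.117 to 3.66). For 22 nt loci the shares were 23.9% in Wa8730, 2.90% in Lj8627, 1.90% in Lg7742a and 8.59% in Sp9509. For 24 nt loci and the next of their own class they were 63.6%, 12.7%, 10.1% and 55.6% in the same order. The intervals of 23 and 22 nt loci overlapped in Wa8730 and did not overlap in the other 3 accessions. In both Lemna accessions the 23 nt share was above the 22 nt share, and in Sp9509 it was below. The Sp9509 comparison sets loci of different strand makeup side by side: 51 of 356 loci of 22 nt on neither strand lay within 1 kb, and 0 of 238 on a single strand, against 0 of 144 single-strand loci of 23 nt.

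Closeness to 24 nt loci also went with strand. Within 1 kb lay 34.8% of the 23 nt loci on neither strand in Wa8730 (29.4 to 40.5), against 10.6% of the single-strand loci (6.70 to 16.3). In Lg7742a the shares were 9.09% (6.19 to 13.2) and 3.03% (1.54 to 5.86). In Lj8627 they were 10.1% (8.36 to 12.1) and 7.37% (5.57 to 9.69), with intervals that overlap. Among loci with at least 10 reads the shares were further apart, at 15 of 47 or 31.9% (20.4 to 46.2) and 8 of 87 or 9.20% (4.73 to 17.1) in Lj8627. In Lg7742a they were then 7 of 12 or 58.3% (32.0 to 80.7) and 2 of 42 or 4.76% (1.32 to 15.8), and in Wa8730 47.8% of 115 and 9.43% of 53. Depth differed with strand in these sets. At least 30 reads were held by 18 of the 42 single-strand loci in Lg7742a, 37 of 87 in Lj8627 and 24 of 53 in Wa8730. On neither strand this was 1 of 12, 0 of 47 and 0 of 115. Strand kinds of equal depth were not compared. None of the 144 single-strand loci of Sp9509 had a 24 nt locus within 1 kb, which allows a share of up to 2.60%, and 1 of its 7 loci on neither strand did. The 22 nt loci of Wa8730 were divided in a like way, with 29.2% on neither strand (25.8 to 32.9) and 10.7% on a single strand (7.44 to 15.1) within 1 kb. Both intervals overlapped those of the 23 nt loci. In Lg7742a only 2.08% of 22 nt loci on neither strand (1.16 to 3.68) were that close, below the interval of the 23 nt loci. In Lj8627 the 22 nt loci had 3.15% on neither strand (2.50 to 3.95) and 2.47% on a single strand (1.74 to 3.48), both below the 23 nt intervals.

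Few of the deepest 23 nt loci had a 24 nt locus within 1 kb, and in most other classes the share of such deep loci was also low. At the same depth, in Lg7742a, Lj8627, Sp9509 and Wa8730, it was 1.38%, 2.34%, 15.2% and 4.59% for 21 nt loci. For 22 nt loci it was 2.70%, 1.48%, 8.06% and 4.83%, and with no size call 1.41%, 1.00%, 0.922% and 11.8%. Of the 124 loci of 23 nt with at least 30 reads, 1 in each of Lg7742a, Lj8627 and Wa8730, and none in Sp9509, had a 24 nt locus within 1 kb. The median distance of these deep loci was 7.45 kb for Wa8730, 67.4 kb for Sp9509, 21.5 kb for Lj8627 and 42.8 kb for Lg7742a. Over the whole 23 nt class it was 3.15, 66.9, 18.1 and 58.1 kb, so deep loci were not farther off in Lg7742a. At 10 to 29 reads the share within 1 kb was 22.9% of 35 loci in Lg7742a, 22.7% of 97 in Lj8627, 41.0% of 144 in Wa8730 and 1.52% of 66 in Sp9509. With at least 30 reads, 24 nt loci themselves lay within 1 kb of another in 88.2% of cases in Wa8730 and 69.5% in Sp9509, with 53.5% for Lj8627 and 9.09% for Lg7742a.

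**Figure D4:**
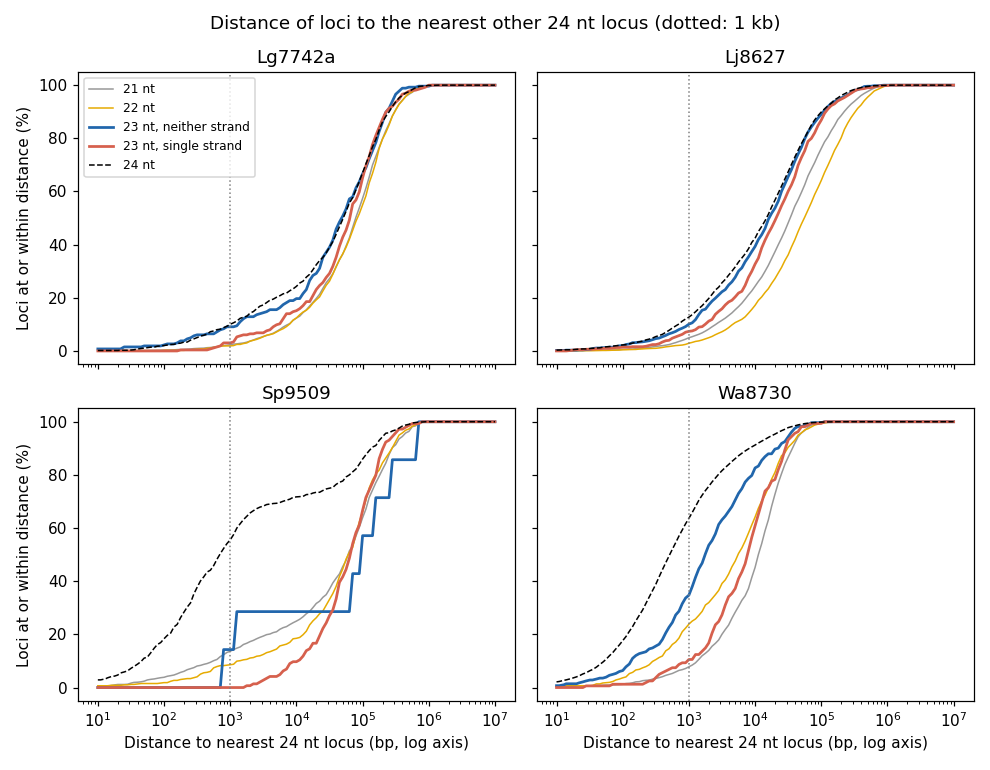
Share of loci (vertical axis, %) at or within a given distance of the nearest other 24 nt locus (horizontal log axis, bp) in each accession, with 23 nt loci in blue (neither strand) and red (single strand), 21 and 22 nt loci in grey and yellow, and 24 nt loci as a dashed line; the dotted line marks 1 kb. In Wa8730 the blue curve reaches 34.8% at 1 kb and the red curve 10.6%; in Sp9509 the red curve is at 0 there, with the dashed line at 55.6%.

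The nearest locus of any class gives a measure that depends less on density. It was a 24 nt locus for 30.3% of the 23 nt loci of Lg7742a (26.5 to 34.4), where 24 nt loci were 22.8% of the chromosomal list, hairpins included. In Lj8627 the values were 44.0% (41.6 to 46.4) and 34.6%. In Wa8730 the nearest locus was a 24 nt locus for 74.0% of the 23 nt loci (69.8 to 77.9), below the 81.0% of the list, and in Sp9509 for 11.3% (7.15 to 17.3), against 16.8% of the list. Among 24 nt loci the nearest locus was of their own class in 89.3% of cases in Wa8730 and 57.0% in Sp9509, against 45.8% for Lj8627 and 32.8% for Lg7742a. Hence 23 nt loci resembled 24 nt loci by this measure in both Lemna accessions, with overlapping intervals, but not in Sp9509 or Wa8730. In Sp9509 the nearest locus was most often one with no size call, for 86 of 151 loci or 57.0% (49.0 to 64.6). Such loci were 49.0% of that list, at the lower bound of this interval.

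Pairs of a 23 nt locus with a 24 nt locus within 1 kb had gaps with a median of 289 bp in Lg7742a, 392 bp in Lj8627 and 385 bp in Wa8730, and the smallest gap was 3 bp. These gaps are between listed edges, and single-strand loci were most often 400 bp longer than their class size. Distances between the reads themselves were not measured. Few 23 nt loci had 24 nt loci within 1 kb on both sides: 4 in Lg7742a, 12 in Lj8627 and 19 in Wa8730. The 24 nt partners held a median of 6, 7 and 15 reads, beside 7, 6 and 10 reads in the 23 nt loci. Over all 24 nt loci the medians were 5, 5 and 15 reads, close to those of the partners. The deepest partners held 41, 50 and 58 reads. The partner had more reads than the 23 nt locus in 14 of 32 pairs in Lg7742a, 79 of 146 in Lj8627 and 92 of 115 in Wa8730. Partners were on neither strand in 28, 113 and 110 of these pairs, or 87.5%, 77.4% and 95.7%. Over all 24 nt loci the shares were 65.6%, 72.2% and 92.9%, close to those of the partners in Lj8627 and Wa8730. Seen from the 24 nt class, 39 of 2247 loci or 1.74% had a 23 nt locus within 1 kb in Lg7742a, 168 of 8627 or 1.95% in Lj8627, and 150 of 29904 or 0.502% in Wa8730.

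The first examples lay close to a 24 nt locus. Loci on neither strand and within 1 kb were 4.55%, 6.19% and 22.1% of the class in Lg7742a, Lj8627 and Wa8730. Those on neither strand and beyond 1 kb were 45.5%, 55.2% and 41.5%, so the examples do not stand for most loci on neither strand. In Wa8730 the 23 nt locus on neither strand with most reads lay on chr15 from 8135261 to 8135817 of assembly asm202106v1 and had 21 reads. A 24 nt locus of 55 reads began 137 bp beyond it and ran from 8135955 to 8136688, also on neither strand. In Lj8627 the corresponding locus, with 26 reads over 1041 bp, lay on chr1M from 12349291 to 12350331, only 14 bp from a 24 nt locus of 12 reads. The longest 23 nt locus of Lj8627 measured 1638 bp on chr9T, from 9172222 to 9173859, and had 26 reads on the minus strand, 423 bp from a 24 nt locus. That 24 nt locus had 27 reads, but the nearest locus of any class was another 23 nt locus, at 184 bp. In all 3 examples the 23 nt locus had at most 26 reads.

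The deepest locus of each accession was on a single strand. In Sp9509 a plus-strand locus of chr10, from 1910233 to 1910659 of assembly asm3v1, held 9421 reads, 32.1% of the 23 nt reads of that accession, and the nearest 24 nt locus was 8.06 kb away. The next were a plus-strand locus on chr8 from 4982522 to 4983104 with 7247 reads, 484 kb from any 24 nt locus, and a minus-strand locus on chr8 from 4230907 to 4231333 with 4867 reads, at 61.7 kb. Together these 3 loci held 73.4% of the 23 nt reads of Sp9509. The first and the third were 427 bp long. The longest 23 nt locus of Sp9509, 692 bp on chr20 from 3248898 to 3249589, was also its deepest on neither strand, with 26 reads, and lay 1.18 kb from a 24 nt locus of 9 reads.

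In Wa8730 the leading locus was on the plus strand of chr5 from 328413 to 328965, with 2682 reads, 9.59 kb from a 24 nt locus of 16 reads. It was followed by a plus-strand locus on chr11 from 11016288 to 11016714 with 980 reads and a minus-strand locus on chr16 from 6369611 to 6370037 with 476 reads, both 427 bp long. They lay 6.38 and 5.35 kb from a 24 nt locus. The longest 23 nt locus of Wa8730, of 947 bp, was the deep locus with a close partner: it lay on chr3 from 12983832 to 12984778, held 197 reads on the plus strand, and was 26 bp from a 24 nt locus of 18 reads. In Lg7742a the plus strand of chr15 had 1586 reads from 14374154 to 14374591, 447 kb from a 24 nt locus. Next came 858 reads on the minus strand of chr3 from 9169177 to 9170050, which at 874 bp was the longest 23 nt locus there, and 719 reads on the plus strand of chr13 from 15500661 to 15501211. These lay 32.1 and 5.08 kb from a 24 nt locus. The locus of 30 reads on neither strand of chr12, from 7914536 to 7915328, was 20.0 kb from a 24 nt locus of 3 reads.

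Lj8627 had no single leader. Its deepest 6 loci held between 1867 and 2035 reads each, a range of 1.09 times, and the seventh held 1104. They lay on chr14T from 2838568 to 2838995 with 2035 reads, on chr19M from 1601300 to 1601868 with 2032 and on chr13M from 4494605 to 4495031 with 1983. The others were on chr12M from 12623623 to 12624052 with 1938, on chr9M from 16557447 to 16557945 with 1928 and on chr2T from 12616367 to 12616879 with 1867. Loci of nearly equal depth were thus found on 6 differently numbered chromosomes, 4 of the M set and 2 of the T set. In order of depth, the nearest 24 nt locus was 160, 24.6, 6.45, 43.8, 3.67 and 36.5 kb away. All 6 loci were on a single strand and together held 45.5% of the 23 nt reads. The fourth to sixth were picked out after their values were seen. The handling of reads that match several places is not stated in the labels or lists, and whether these loci share reads was not tested.

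The M and T chromosome sets of Lj8627 were read in the same libraries. M had 1207 loci of 23 nt and T had 409. The excess of M was larger for loci on neither strand, 762 against 230 and a ratio of 3.31 (2.86 to 3.84), than for single-strand loci, 445 against 179 and a ratio of 2.49 (2.09 to 2.96), with intervals that overlap. M was higher in 21 of 21 chromosome pairs for the former and in 20 for the latter, with an equal number on chr20. The 24 nt loci gave 4.06 (3.81 to 4.32) on neither strand and 2.84 (2.59 to 3.11) on a single strand. Each 23 nt ratio was the lower, and the intervals overlapped in both comparisons. Over both strand kinds they did not overlap, at 2.95 for 23 nt loci (2.64 to 3.30) and 3.65 for 24 nt loci (3.47 to 3.84). The 22 nt loci went the other way, at 0.669 (0.626 to 0.716), with more loci on T in 18 of 21 pairs.

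By depth, the excess of M was 2.34 at 3 or 4 reads, 3.68 at 5 to 9 reads (3.12 to 4.34) and 3.04 at 10 to 29 reads. With at least 30 reads M had 24 loci and T 13, a ratio of 1.85 whose interval of 0.952 to 3.58 held equality. The 24 nt loci had a ratio of 7.64 at 10 to 29 reads and 4.46 with at least 30 reads (2.47 to 8.07), from 58 loci on M and 13 on T. The latter interval overlapped that of the 23 nt loci. In reads, loci on neither strand favoured M by 3.91, with 4416 against 1128 reads, and single-strand loci by 1.51, with 12263 against 8103 reads. The ratio in reads over all 23 nt loci was 1.81, and 2.95 without the 10 loci with most reads, so it rested on those few loci. Pairs with a 24 nt locus within 1 kb numbered 125 on M and 21 on T, which is 5.95 times as many (3.76 to 9.41). Loci of 24 nt within 1 kb of another of their class numbered 984 on M and 113 on T. That ratio was 8.71 (7.17 to 10.6), with an interval that overlapped that of the pairs. Per Mb, M had 4.49 times as many 24 nt loci as T.

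**Figure D5:**
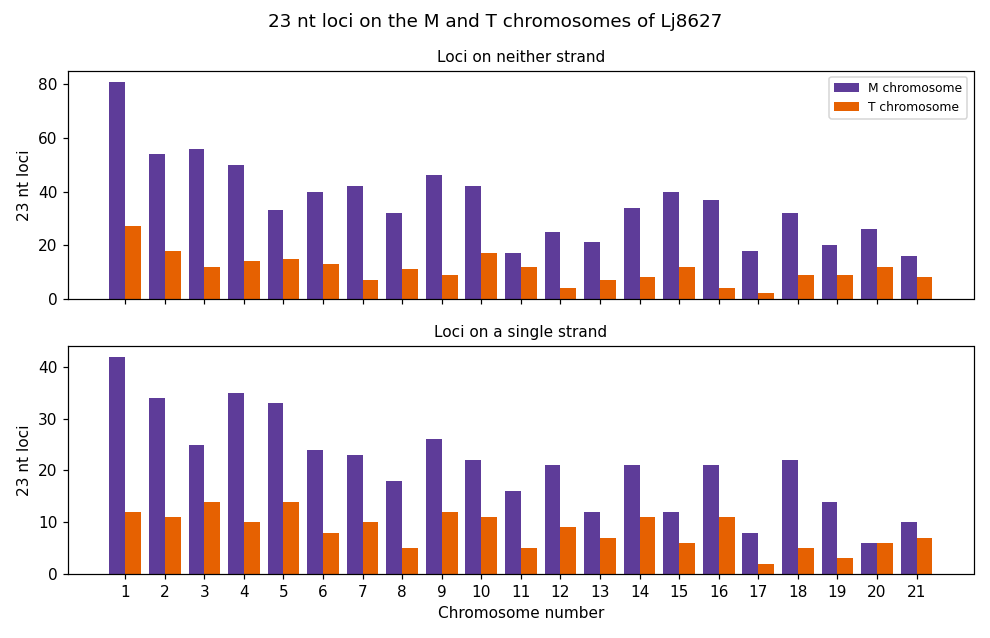
Number of 23 nt loci (vertical axis) on the M chromosome (purple) and the T chromosome (orange) of each of the 21 numbered pairs of Lj8627 (horizontal axis), for loci on neither strand (top) and on a single strand (bottom). M is higher in every pair at the top and in 20 pairs at the bottom, where pair 20 is equal.

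In both sets the 23 nt loci had a 24 nt locus as nearest neighbour more often than its share of the list. The nearest locus was a 24 nt locus for 48.6% of the 23 nt loci on M (45.7 to 51.4), where 24 nt loci were 42.7% of the list, and for 30.6% on T (26.3 to 35.2), where they were 20.4%. Among 24 nt loci the shares were 50.1% on M and 30.3% on T, with intervals that overlapped those of the 23 nt loci in each set. For 22 nt loci they were 31.7% and 12.6%. The median distance to a 24 nt locus was 12.6 kb on M and 63.0 kb on T for 23 nt loci, and 19.5 and 120 kb for 22 nt loci.

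Along the chromosomes, 23 nt loci were thinly spread. A 1 Mb window held on average 2.09 of them in Lj8627, 1.23 in Wa8730, 1.06 in Lg7742a and 1.03 in Sp9509. The fullest windows held 14, 5, 7 and 5 loci, and 25.9%, 31.0%, 35.9% and 39.0% of windows held none, in that order. Over windows, numbers of 23 and 24 nt loci had a Spearman correlation of 0.49 over 348 windows of M, 0.25 over 425 windows of T, 0.20 over 496 windows of Lg7742a, 0.23 over 361 of Wa8730 and 0.02 over 146 of Sp9509. For 23 and 22 nt loci the values were 0.07, -0.12, 0.09, 0.15 and -0.06 in the same order, and for 23 and 21 nt loci 0.24, -0.07, 0.05, 0.13 and 0.01. With loci of no size call they were 0.26, 0.16, 0.13, 0.18 and 0.21, so in Sp9509 the 23 nt loci had their highest value with that class. These are descriptions, since windows of an accession share their libraries, depth and assembly, and counts per window are small. Per chromosome, the number of 23 nt loci ran from 12 to 58 in Lg7742a, 4 to 123 in Lj8627, 1 to 11 in Sp9509 and 8 to 43 in Wa8730.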

How the data were processed

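The deposited files list small RNA loci of each accession with position, strand, size call and a count of reads. Per the file headers and names, the authors built the loci with ShortStack from 3 pooled libraries per accession. The assembly is asm3v1 for Sp9509 and asm202106v1 for the rest. Each deposited count is a whole number that was not normalized. Among tools, fastp 0.20.1 and deepTools appear in the submitters' processing notes. How reads were aligned, how loci were delimited and where reads with several matches went is not given in the sources used. Genome sequence was not used here, so loci were not placed in genes or repeats and no sequences are shown.

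Loci called 23 nt, outside hairpins and on numbered chromosomes, were kept; mature and star lines of hairpins were left out. Edge distances to the nearest other locus were taken on the same chromosome, with hairpins counted as neighbours of any class. Intervals are 95% Wilson intervals for shares and for ratios of counts, and order-statistic intervals for medians. Depth is the pooled reads in loci; total library depth was not used here. Members, size groups, bands of reads and lengths were chosen with earlier results of these data known. Loci are named by a rule: per accession the 3 with most reads, the longest, and the deepest on neither and on a single strand, in Lj8627 also on M and T. The fourth to seventh of Lj8627 were added after their values were seen. Python 3.11.15, pandas 2.3.3, numpy 2.4.6, scipy 1.17.1 and matplotlib 3.10.9 were used. Reading, distances and neighbours were tested on simulated lists.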

Additional observations from a re-analysis of the deposited data

Results flagged for a closer look

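The 23 nt loci were set against 22 nt loci of the same accession in the share that lay within 1 kb of a 24 nt locus. The difference, 23 nt minus 22 nt, was 4.16 percentage points in Lg7742a, 6.13 in Lj8627 and 2.10 in Wa8730, but -7.92 in Sp9509. Sp9509 thus went in the opposite direction from both Lemna accessions, while the intervals of 23 and 22 nt loci overlapped in Wa8730. The difference between accessions was not tested, because the replicates are pooled. In Sp9509 the 22 nt loci within 1 kb were all on neither strand, 51 of 356, and 144 of its 151 loci of 23 nt were on a single strand.

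Loci of 23 nt also occurred off the numbered chromosomes, outside the comparisons above. Lj8627 had 54 of them with 6339 reads, 52 on scaffolds and 2 on the chloroplast sequence. Of these reads, 6047 were in 3 loci with 2048, 2014 and 1985 reads, and the fourth had 20. Their depths fall beside the 1867 to 2035 reads of the 6 deepest chromosomal loci of Lj8627. Wa8730 had 4 such loci on scaffolds, with 59 reads. A single hairpin with a 23 nt call was listed, on the minus strand of chr8 of Wa8730 from 13133783 to 13133945, with 440 reads.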

How the results depend on the processing

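No paired analysis was possible because every list pools its 3 libraries, and leaving out a replicate was not run for that reason. M and T apart, and reads without the 10 top loci, were chosen after seeing the data. No alternative turned the excess of M over T. Most loci had under 10 reads except in Sp9509, so read minimums and counting reads in place of loci changed many values; beyond which loci were counted, the cause was not tested. A minimum of 5 reads left 253 loci in Lg7742a and 972 in Lj8627. With at least 10 reads there were 54, 134 and 168 in Lg7742a, Lj8627 and Wa8730, while 10 scaled reads left 54, 104 and 107 there and 75 in Sp9509, and 100 reads left 8, 15 and 10 there and 15 in Sp9509. The share on neither strand was 22.2%, 35.1% and 68.5% in Lg7742a, Lj8627 and Wa8730 at 10 reads, and counted in reads 17.3%, 21.4% and 25.6% there and 0.290% in Sp9509; it was 56.2% on T. The median distance to a 24 nt locus became 43.1 kb in Lg7742a and 2.22 kb in Wa8730 for 23 nt loci with at least 10 reads. To 24 nt loci with at least 10 reads it was 1040 kb in Lg7742a, 261 kb in Lj8627 and 4.75 kb in Wa8730, and it was 12.6 kb on M and 63.0 kb on T. The share within 1 kb of a 24 nt locus was 1.89% in Lg7742a and 2.85% in Lj8627 when 24 nt loci needed 10 reads. The excess of loci on neither strand in that share became 53.6 percentage points in Lg7742a, 22.7 in Lj8627 and 38.4 in Wa8730 for 23 nt loci with at least 10 reads, from 6.06, 2.71 and 24.2. The nearest locus was of 24 nt for 35.2% and 39.6% of the 23 nt loci with at least 10 reads in Lg7742a and Lj8627. With that minimum for all loci it was so for 16.7%, 22.4% and 79.2% in Lg7742a, Lj8627 and Wa8730. That minimum also changes the share of 24 nt loci in the list, which was not computed. These 3 values therefore cannot be set against the list shares above. Without a minimum, the nearest locus was of 24 nt for 41.3% of single-strand loci, 48.6% on M and 30.6% on T in Lj8627. In Wa8730 it was so for 80.9% of loci on neither strand and 62.1% of single-strand loci. The M to T ratio was 2.62 at 10 reads, 3.63 per Mb, 1.81 in reads, 2.95 in reads without the 10 top loci, 3.31 on neither strand and 2.49 on a single strand, and 2.91 to 3.01 with any chromosome pair left out.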
